A study of Rattus norvegicus with 54 samples.

Results

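The 150 genes described here differed little between 2 h and 6 h in untransfected rat cortical neuron cultures, or had at most begun to rise, and stood higher at 24 h. They were chosen from the 18 untransfected libraries of the series. Levels in CPM, a gene's counts scaled to the total counts of its library, were taken as log2(CPM + 0.5) and averaged at each time over both media. A gene was admitted if it lay on an autosome, spanned under 500 kb and had at least 5 CPM on average at 24 h. Of the 30560 genes in the count table, 24177 had any count and 10532 were admitted, of which 10133 had a 6 h minus 2 h difference under 1. The 150 with the largest 24 h minus 6 h difference among these are the late-rising genes. A further 30 admitted genes had a larger 24 h minus 6 h difference than the last of the 150 but were left out because they had already risen by 1 or more between 2 h and 6 h.

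The series examined the role of Mbd3 in epileptogenesis, in primary neurons of the cortex of rat embryos on day 18 of gestation, grown in culture. Cultures were either left without virus (called untransfected here) or given an adeno-associated virus (AAV) that carried GFP (AAV_SYN_GFP, called GFP) or rMBD3 together with GFP (AAV_SYN_rMBD3_GFP, called rMBD3). They were kept in a standard medium with magnesium or in a magnesium-free medium, and RNA was taken 2, 6 or 24 h after the start of the epileptiform condition. These 3 constructs, 2 media and 3 times gave 18 groups of 3 libraries, 1 from each of cultures 1, 2 and 3 of the labels, and 54 libraries in all. The SYN (synapsin) promoter of both viruses is active mainly in neurons, so other cells of the culture would carry little transgene. The untransfected cultures differ from the rMBD3 cultures by the virus as well as by rMBD3, and the GFP cultures are the matching virus control. The labels hold no library taken before the time course began.

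Neurons answer a change in their activity with waves of mRNA. The earliest wave holds transcription factors that peak within the first hours and then fall. Later waves hold genes that need newly made protein or slow signals to be switched on. A gene that is flat early and high a day later resembles a late wave in timing alone. Whether the late-rising genes belong to such a wave was not tested. Magnesium ions block the NMDA-type glutamate receptor at rest, and taking magnesium away lifts this block and gives recurrent epileptiform discharges in cultured neurons. MBD3 is a subunit of the NuRD complex, which joins nucleosome remodelling to histone deacetylation and is mostly known for holding genes at low activity.

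The count table pairs its Ensembl identifiers with no gene symbol, and 0 of them could be matched to 1 of the 47357 genes in the available list of symbols. Genes are therefore given by identifier, position on mRatBN7.2 and gene structure, with at most 2 per direction in each comparison, and neither the late-rising genes nor markers of neurons, glia or other cells could be given a function. Whether the labelled cell type matched its defining markers was not analysed here, and in these bulk libraries more cells of a type cannot be told apart from more RNA per cell.

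Total counts per library ran from 14448927 to 39691105. A count of 3 corresponded to 0.0756 to 0.208 CPM, a floor that covers counting error only. Mitochondrial genes took 1.38% to 4.9% of the counts. The gene with the smallest p between rMBD3 and GFP at 24 h was ENSRNOG00000028956, which is not among the 150. At 24 h it stood at 2297 to 8142 CPM in the 6 rMBD3 libraries, 162 to 198 CPM in the 6 GFP libraries and 176 to 249 CPM in the 6 untransfected ones, so at that time the libraries labelled rMBD3 stood apart from the rest.

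The values that chose the late-rising genes are given as a description, with no test. On the log2 scale their 24 h minus 6 h difference in the untransfected libraries ran from 1.13 to 3.03 with a median of 1.45, which is 2.19-fold to 8.19-fold with a median of 2.73-fold. The difference was 2 or more in 27 genes. Between 2 h and 6 h the same genes differed by -0.66 to 0.99 with a median of 0.44. This early difference was above 0 in 126 genes, over 0.5 in 63 and under -0.25 in 7, so most of them had already moved slightly in the later direction. The last 3 genes inside the rule had 24 h minus 6 h differences of 1.137, 1.1368 and 1.133, and the first 3 outside had 1.1328, 1.1289 and 1.1269, so the boundary falls in a continuous run of values.

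Most of the late-rising genes stayed at modest levels even at their highest. Their mean level at 24 h in the untransfected libraries ran from 5.16 to 743 CPM with a median of 14 CPM, against a median of 42.1 CPM over the 10133 genes the rule ranked. Only 17 of the 150 exceeded 100 CPM and 60 exceeded 20 CPM, while 49 lay under 10 CPM. Per kb of exon the median was 4.14 CPM, against 12.9 CPM for the ranked genes. Together the 150 genes took a median of 0.182% of all counts at 2 h, 0.24% at 6 h and 0.671% at 24 h in the untransfected libraries.

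**Figure D1:**
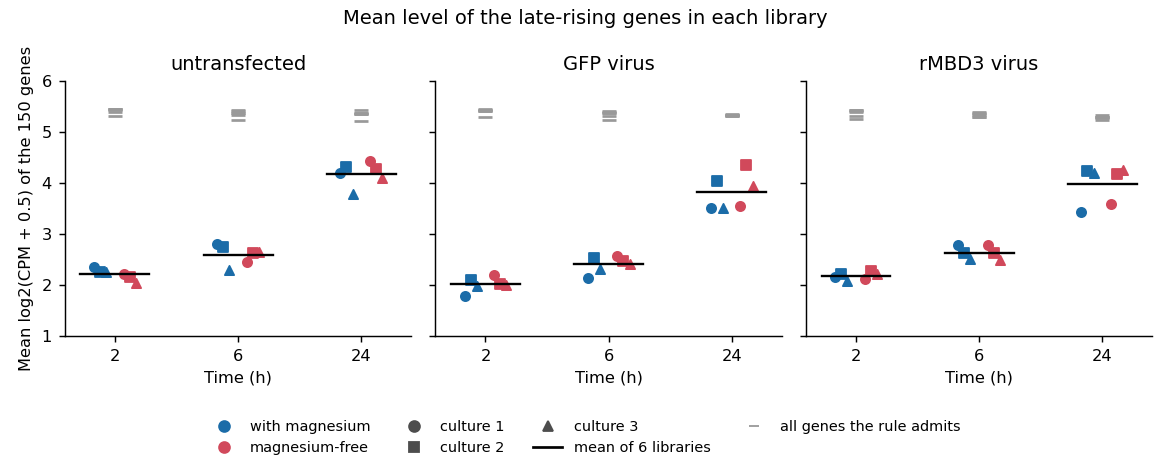
Mean log2(CPM + 0.5) of the 150 late-rising genes in each of the 54 libraries (y axis) by time in h (x axis), with a panel per construct, colour for medium, shape for culture and a black line for the mean of 6 libraries; grey marks give the mean over all genes the rule ranked in the same libraries. The 24 h libraries stand above the 6 h libraries in all 3 panels, and the culture 1 libraries of both viruses are among the lowest at 24 h.

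The largest rise in the untransfected libraries was that of ENSRNOG00000015049, a gene of 29 merged exons on the minus strand at chr8:119220905-119318769. Its lowest, median and highest values over the 6 untransfected libraries were 0.0411, 0.941 and 1.33 CPM at 2 h, then 0.547, 0.869 and 1.57 CPM at 6 h, and 5.75, 11.6 and 22 CPM at 24 h. All 24 h libraries lay above all earlier ones. At 24 h it reached 2.3, 4.29 and 6.45 CPM in the GFP libraries and 3.88, 4.65 and 6.76 CPM in the rMBD3 libraries, so that the untransfected range began inside that of the virus cultures and extended well above it. Its 24 h minus 6 h rise was nevertheless present in both, at 2.90 ± 0.55 in GFP (log2, SE, edgeR adjusted p = 0.000124) and 2.77 ± 0.54 in rMBD3 (edgeR adjusted p = 0.000143), and it was higher at 24 h in 6 of 6 same-numbered pairs in each.

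The gene ranked next, ENSRNOG00000013179 (chr5:142513714-142523720, minus strand, 12 merged exons), had a median of 0.267 CPM at 2 h, 0.704 CPM at 6 h and 8.79 CPM at 24 h in the untransfected libraries. The 24 h libraries ranged from 2.52 to 23.4 CPM, and both culture 1 libraries were the lowest. The same was so in GFP, where the 24 h values were 0.936, 12 and 21.9 CPM, and in rMBD3, where they were 2.02, 7.48 and 11.2 CPM. Its fitted rise in GFP, 3.99 ± 0.64 (log2, SE, edgeR adjusted p = 1.35e-05), was the largest of the 150. It was higher at 24 h in 6 of 6 pairs, although the lowest 24 h library in GFP lay within the 6 h range of 0.359 to 1.41 CPM.

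Relative to exon length, the most abundant of the late-rising genes were ENSRNOG00000020918 (chr1:200089002-200098602, minus strand, 6 merged exons) and ENSRNOG00000020716 (chr1:81265088-81296265, minus strand, 21 merged exons). ENSRNOG00000020918 stood at 104 to 206 CPM at 6 h and at 426 to 787 CPM at 24 h in the untransfected libraries. It went from 46.6, 121 and 196 CPM (lowest, median and highest) to 262, 486 and 850 CPM in GFP, and from 72.6, 98.2 and 120 CPM to 189, 701 and 954 CPM in rMBD3, with no overlap between the times. The fitted rise was 2.08 ± 0.39 in GFP and 2.60 ± 0.40 in rMBD3 (log2, SE, edgeR adjusted p = 0.00012 and 5.48e-06). ENSRNOG00000020716 differed from most of the 150 in that it rose in both steps in both viruses. In GFP its median went from 50.8 CPM at 2 h to 107 CPM at 6 h and 268 CPM at 24 h, and in rMBD3 from 66.7 to 108 and 369 CPM. The edgeR adjusted p was 4.75e-05 and 0.00667 for the early step and 6.79e-07 and 2.76e-08 for the late one.

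**Figure D2:**
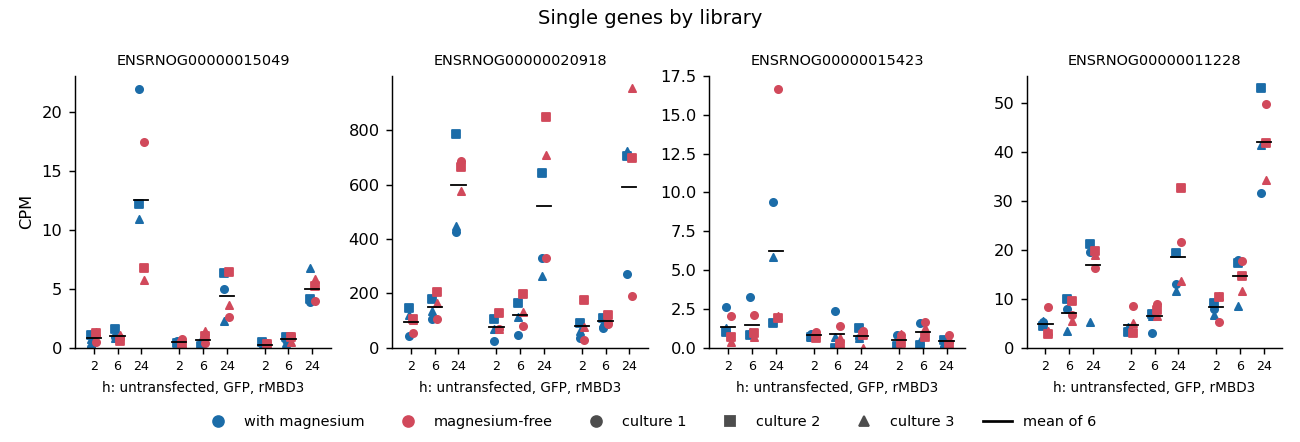
CPM (y axis) of 4 late-rising genes in every library by time in h and construct (x axis), with colour for medium, shape for culture and a black line for the mean of 6 libraries. ENSRNOG00000015049 has the largest rise in the untransfected libraries, ENSRNOG00000020918 is the most abundant per kb, ENSRNOG00000015423 stays at or under 1.27 CPM at 24 h in both viruses, and ENSRNOG00000011228 is higher in rMBD3 than in GFP.

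The GFP and rMBD3 libraries were not used to choose the genes, and in them the late rise could be tested. They share culture numbers and times with the untransfected libraries, so they are not fully independent of the choice. Deviations of a culture at a time that helped to choose a gene could recur in them, and their part in the counts was not tested. All 150 genes passed the low-count filter, which was set over all 54 libraries and left 17172 genes. In GFP, 121 of the 150 (80.7%) were higher at 24 h than at 6 h and 0 were lower at an edgeR adjusted p under 0.05, where 10.6% of all tested genes were higher and 15.5% lower. In rMBD3, 119 (79.3%) were higher and 0 lower, where 14.8% of all tested genes were higher and 17.8% lower. At an unadjusted p under 0.05, 130 were higher and 0 lower in GFP, together 86.7%, where 37.56% of all tested genes reached it in either direction. In rMBD3 125 were higher and 0 lower, together 83.3%, where 42.15% of all tested genes reached it. DESeq2 called 127 higher in GFP and 119 in rMBD3, where it called 9.74% and 11% of all genes it tested higher. It called 0 lower in both, where it called 13.6% and 16.2% of all genes it tested lower. The median fitted change of the 150 was 1.50 in GFP and 1.52 in rMBD3 on the log2 scale, against medians of -0.01 and 0.01 over all tested genes. A rise of 2-fold or more was fitted for 120 of them in GFP and 117 in rMBD3, where 7.6% and 6.78% of all tested genes had one. A rise of 4-fold or more was fitted for 35 and 37 of them, where 1.83% and 1.34% of all tested genes had one. Without culture 3 the number called higher was 71 in GFP and 48 in rMBD3, where 1.81% and 1.31% of all tested genes were. Without culture 1 it was 129 in GFP and 128 in rMBD3, where 17.6% and 22.2% of all tested genes were. In that fit 0 were called lower in GFP and 1 in rMBD3, where 19.5% and 25% of all tested genes were.

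In both viruses 112 of the 150 genes were called higher at 24 h, where 8.2% of all tested genes were. The call was made in GFP alone for 9, in rMBD3 alone for 7 and in neither for 22. These counts do not show that any gene differed between the viruses. The 22 genes called in neither had a median of 8.25 CPM at 24 h in the untransfected libraries, and 14 of them lay under 10 CPM. The 112 called in both had a median of 21.4 CPM, and 24 of them lay under 10 CPM. By level class, 16 of the 17 genes over 100 CPM were called in both viruses, as were 41 of the 43 from 20 to 100 CPM, 31 of the 41 from 10 to 20 CPM and 24 of the 49 under 10 CPM. The median fitted rise fell less with level than the calls did, from 1.54 to 1.35 in GFP and from 1.75 to 1.38 in rMBD3 between the highest and the lowest class. The share of all tested genes called in each level class was not counted.

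**Figure D3:**
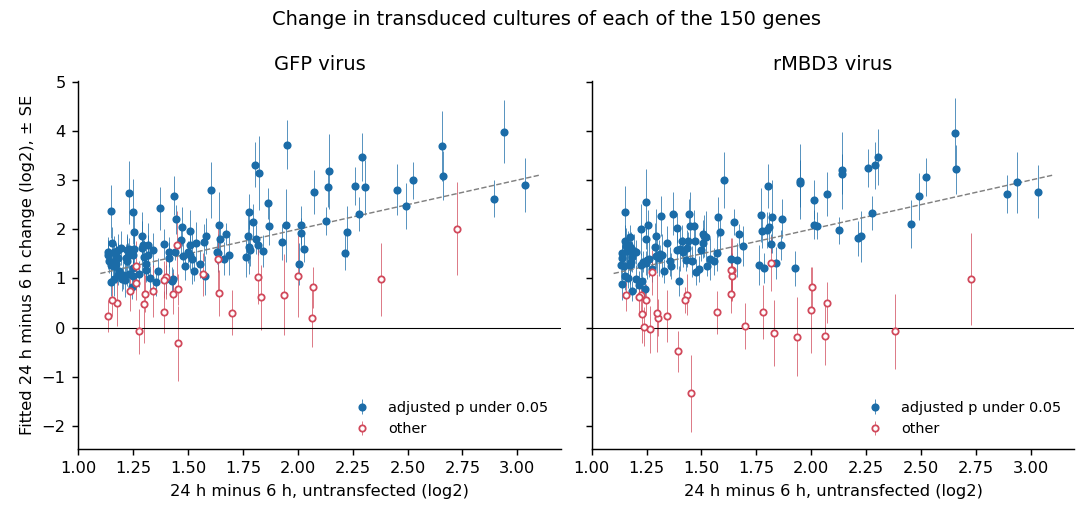
Fitted 24 h minus 6 h change (log2, y axis, bars are ± 1 SE) of each of the 150 late-rising genes in GFP (left) and rMBD3 (right) against the same difference in the untransfected libraries (log2, x axis), which chose the genes; filled points passed an edgeR adjusted p under 0.05 and the dashed line marks equal values. Of the 150 points, 121 are filled in GFP and 119 in rMBD3, and all but 1 of the open points in both panels lie under the dashed line.

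Apart from ENSRNOG00000013179, the largest called rise in GFP was that of ENSRNOG00000005392 (chr10:80515299-80533518, minus strand, 7 merged exons). Its values in the GFP libraries were 1.22, 2.85 and 5.58 CPM at 6 h (lowest, median and highest) and 14.1, 37.6 and 73.2 CPM at 24 h, with no overlap. Its median at 24 h was 15.8 CPM in the untransfected libraries and 31.5 CPM in the rMBD3 libraries, so in this gene the untransfected cultures had the lowest median. The fitted rise was 3.72 ± 0.50 in GFP and 2.94 ± 0.48 in rMBD3 (log2, SE, edgeR adjusted p = 7.67e-07 and 1.35e-05).

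In rMBD3 the largest called rises were those of ENSRNOG00000011647 (chr2:176100899-176102180, plus strand, 3 merged exons) and ENSRNOG00000007905 (chr7:1359940-1388450, plus strand, 26 merged exons). ENSRNOG00000011647 went from 0.243, 0.582 and 1.03 CPM at 6 h to 0.759, 10.6 and 20.6 CPM at 24 h in the rMBD3 libraries, a fitted rise of 3.96 ± 0.72 (log2, SE, edgeR adjusted p = 5.7e-05). One of its 24 h libraries lay within the 6 h range, and it was higher at 24 h in 5 of 6 pairs. ENSRNOG00000007905 went from 5.78, 8.41 and 11.1 CPM to 11.9, 105 and 175 CPM without overlap, a fitted rise of 3.47 ± 0.57 (log2, SE, edgeR adjusted p = 1.38e-05). Its rise in GFP was 2.85 ± 0.55 (log2, SE, edgeR adjusted p = 0.000177), from a median of 7.31 CPM to one of 66.9 CPM.

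The 2 lowest fitted late changes in each virus belonged to 3 genes in all. ENSRNOG00000015423 (chr2:119426089-119433577, minus strand, 9 merged exons) was at 1.61, 3.94 and 16.7 CPM at 24 h in the untransfected libraries, where its 2 highest values were those of culture 1. At 24 h it was at 0, 0.732 and 1.27 CPM in GFP and at 0.0422, 0.382 and 0.824 CPM in rMBD3, all below the lowest untransfected value. Its fitted 24 h minus 6 h change was -0.32 ± 0.76 in GFP and -1.34 ± 0.79 in rMBD3 (log2, SE, edgeR adjusted p = 0.795 and 0.193), and the GFP value was above 0 with the culture number as a block (0.15) and without culture 1 (0.74). ENSRNOG00000008986 (chr15:62543375-63012975, minus strand, 29 merged exons) changed by -0.08 ± 0.46 in GFP (edgeR adjusted p = 0.92), with a median of 1.78 CPM at 6 h and 1.52 CPM at 24 h, and by 1.12 ± 0.47 in rMBD3 (edgeR adjusted p = 0.0598). ENSRNOG00000004195 (chr13:103117186-103154890, minus strand, 15 merged exons) changed by -0.48 ± 0.42 in rMBD3 (edgeR adjusted p = 0.399), from a median of 2.02 CPM to one of 1.47 CPM, and by 0.32 ± 0.42 in GFP (edgeR adjusted p = 0.615). In the untransfected libraries the 24 h values of both genes spread widely, from 2.57 to 14.9 CPM and from 2.71 to 17.1 CPM, and the 2 highest were again those of culture 1. None of the 4 changes of these genes in the viruses passed the threshold.

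**Figure D4:**
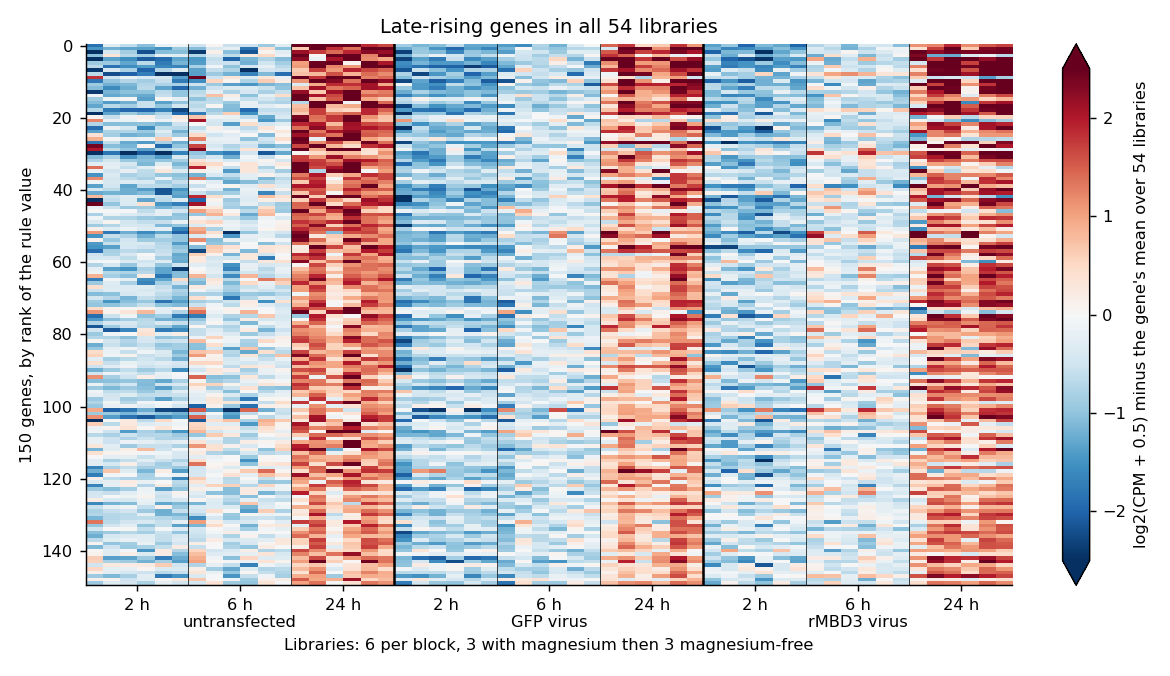
Level of the 150 late-rising genes (rows, by rank of their 24 h minus 6 h difference in the untransfected libraries) in all 54 libraries (columns, grouped by construct and time, 3 with magnesium then 3 magnesium-free), as log2(CPM + 0.5) minus the gene's mean over the 54 libraries, with the colour scale ending at the values marked on the bar. The 24 h blocks are red for most rows in all 3 constructs, and the rows that stay pale in the virus blocks are scattered through the ranks.

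Without a model, the rise could be read in single libraries. Among the 150 genes, 88 had every GFP library at 24 h above every GFP library at 6 h, where 4.09% of all tested genes did, and 63 did so in rMBD3, where 5.84% of all tested genes did. Within same-numbered pairs of the same medium, 117 genes in GFP and 89 in rMBD3 were higher at 24 h in 6 of 6 pairs, where 14.7% and 15.3% of all tested genes were. There were 7 genes in GFP and 14 in rMBD3 that were higher in 3 or fewer of the 6 pairs. The share of all tested genes with 3 or fewer such pairs was not counted, so nothing is read from these counts. In the untransfected libraries, which chose the genes, 80 had every 24 h library above every 6 h library, where 1.85% of all tested genes did. In the same libraries 133 were higher in 6 of 6 pairs, where 7.75% of all tested genes were.

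The size of the rise differed among cultures. In GFP the median rise of the 150 genes within a pair was 1.34, 1.48 and 1.19 (log2) for cultures 1, 2 and 3 with magnesium and 0.87, 1.97 and 1.52 without. In rMBD3 it was 0.68, 1.64 and 1.72 with magnesium and 0.78, 1.64 and 1.86 without, so culture 1 had the smallest rise in both media. In the untransfected libraries, which chose the genes, it was 1.20, 1.49 and 1.51 with magnesium and 1.84, 1.57 and 1.35 without, and culture 1 was not set apart. The median over all tested genes lay between -0.05 and 0.01 in each of the 18 pairs. At 24 h the culture 1 libraries averaged 3.52 on the log2 scale in GFP and 3.51 in rMBD3 for the 150 genes, against 4.20 and 3.73 in GFP and 4.20 and 4.23 in rMBD3 for cultures 2 and 3. In these culture 1 libraries mitochondrial genes took 3.27% and 2.76% of the counts, against 2.22% and 2.25% in GFP and 2.27% and 1.97% in rMBD3 for the other cultures, and the part of this difference in the smaller rise was not tested.

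**Figure D5:**
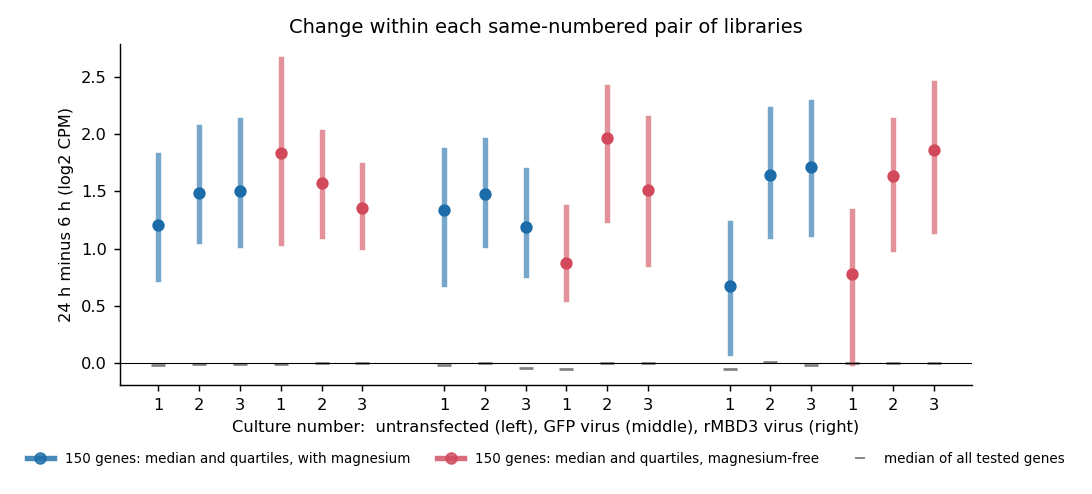
Median 24 h minus 6 h change (log2, y axis) of the 150 late-rising genes within each pair of libraries of the same construct, medium and culture (x axis); bars span the quartiles of the 150 genes and grey dashes give the median of all tested genes. The medians lie between 0.68 and 1.97, with the smallest in culture 1 of rMBD3, while those of all tested genes lie near 0.

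The 150 genes varied more among cultures than other genes did. Within a group the SD of log2 CPM at 24 h had a median of 0.55 in GFP and 0.60 in rMBD3 for the 150 genes, against 0.26 and 0.28 for the genes the rule ranked. At 6 h the medians were 0.43 and 0.39 against 0.27 and 0.20, and at 2 h they were 0.32 and 0.39 against 0.18 and 0.23. The 150 genes lie at lower levels than the ranked genes, and the part of level in this spread was not tested.

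Applied to the other constructs, the rule would have picked partly other genes. From the 18 GFP libraries it chose 78 of the 150, and from the 18 rMBD3 libraries 75. Of the 72 not chosen in GFP, 33 fell under the level minimum at 24 h, 12 had an early difference of 1 or more and 27 had a smaller late difference. Of the 75 not chosen in rMBD3 these numbers were 33, 18 and 24. In all 3 constructs 61 genes were chosen, and 58 were chosen in neither virus.

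The earlier step, from 2 h to 6 h, was small in the virus cultures as well. In GFP 27 of the 150 genes were higher at 6 h than at 2 h and 2 were lower at an edgeR adjusted p under 0.05, where 9.76% of all tested genes were higher and 13.6% lower. In rMBD3 38 were higher and 0 lower, where 9.48% and 14% of all tested genes were. At an unadjusted p under 0.05, 49 were higher and 3 lower in GFP, together 34.7%, where 34.6% of all tested genes reached it in either direction. In rMBD3 54 were higher and 4 lower, together 38.7%, where 35% of all tested genes reached it. DESeq2 called 1 lower there, where it called 11.3% of all genes it tested lower. The median fitted early change was 0.49 in GFP and 0.54 in rMBD3 on the log2 scale, against -0.03 and -0.02 over all tested genes. The fitted late change exceeded the early one in 134 of the 150 genes in GFP and in 126 in rMBD3. Both steps were called higher for 23 genes in GFP and 30 in rMBD3, and the early step in both viruses for 20. The share of all tested genes with these same combined calls was not counted, so no excess is read from them. The counts for the early step moved with single cultures, as did those over all tested genes. Without culture 1, 2 or 3 the number called higher was 52, 2 and 4 in GFP, or 34.7%, 1.33% and 2.67% of the 150. Of all tested genes 17.9%, 1.82% and 2.32% were called higher in these fits. The number called lower in GFP was 3, 0 and 0, where 18.4%, 3.45% and 3.42% of all tested genes were. In rMBD3 the number called higher was 44, 15 and 7, or 29.3%, 10% and 4.67% of the 150. Of all tested genes 16.1%, 3.99% and 2% were called higher there. The number called lower in rMBD3 was 6, 0 and 0, where 16.3%, 5.52% and 3.6% of all tested genes were.

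Genes with a larger early difference in the untransfected libraries also had larger fitted early changes in the virus libraries. Of the 63 with an untransfected early difference over 0.5, 22 were called higher at 6 h in GFP and 29 in rMBD3, with median fitted early changes of 0.87 and 0.90. Of the 63 between 0 and 0.5, 5 and 9 were called, with medians of 0.39 and 0.36. Of the 24 at 0 or under, 0 were called higher in either virus, with medians of -0.35 and -0.21. The late step was called in both viruses for 50, 48 and 14 genes of these 3 classes.

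The largest called early rise in GFP was that of ENSRNOG00000001514 (chr3:57322708-57333353, plus strand, 8 merged exons). It went from 0.0782, 0.239 and 0.439 CPM at 2 h (lowest, median and highest) to 0.413, 0.896 and 2.06 CPM at 6 h and 1.47, 4.1 and 7.11 CPM at 24 h, climbing in both steps from a level of a few counts. The fitted early change was 2.18 ± 0.58 (log2, SE, edgeR adjusted p = 0.00475), and the call was lost without culture 2 or culture 3. In rMBD3 the largest was that of ENSRNOG00000062764 (chr9:538789-543820, minus strand, 4 merged exons), at 3.18 ± 0.71 (log2, SE, edgeR adjusted p = 0.000949). It rose from 0.17, 0.398 and 0.859 CPM at 2 h to 1.46, 2.65 and 10.6 CPM at 6 h without overlap. At 24 h its rMBD3 values were 1.12, 1.69 and 38.7 CPM, where both culture 1 libraries, at 13.5 and 38.7 CPM, stood apart from the other 4, which lay at or under 2.09 CPM. Culture 1 also held its highest values at 6 h.

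The 2 genes that fell early in GFP dipped at 6 h before rising. ENSRNOG00000007324 (chr13:106163103-106358979, plus strand, 32 merged exons) went from 98.7, 118 and 132 CPM at 2 h to 67, 70.1 and 83.6 CPM at 6 h and 115, 155 and 321 CPM at 24 h in the GFP libraries. The 6 h libraries lay below all those of both other times. Its fitted changes were -0.70 ± 0.24 and 1.22 ± 0.24 (log2, SE, edgeR adjusted p = 0.0273 and 0.000176). In rMBD3 its early change was -0.57 ± 0.24 (log2, SE, edgeR adjusted p = 0.0752), lower in 5 of 6 pairs. ENSRNOG00000017503 (chr18:54758902-54861194, minus strand, 13 merged exons) went from a median of 4.49 CPM to 2.58 and 7.69 CPM in GFP, with an early change of -0.82 ± 0.31 (log2, SE, edgeR adjusted p = 0.0489) and a late one of 1.58 ± 0.31 (log2, SE, edgeR adjusted p = 0.000224). Both early falls lost their call without culture 2 or culture 3, and that of ENSRNOG00000017503 also with relative log expression factors and with no low-count filter (edgeR adjusted p = 0.0696 and 0.0692).

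Differences between the rMBD3 and GFP cultures bear on the effect of Mbd3 overexpression beyond that of the virus. At 24 h 1 of the 150 genes was higher in rMBD3 and 0 were lower at an edgeR adjusted p under 0.05, where 0.396% of all tested genes were higher and 0.553% lower. With the culture number as a block the counts were 11 higher and 2 lower, where 2.64% and 3.95% of all tested genes were, and with a block for each culture at each time they were 20 and 2, where 5.07% and 7.59% were. Of the 150 genes, 29 were higher and 4 lower at an unadjusted p under 0.05, together 22%, where 17.4% of all tested genes reached it. DESeq2 called 6 higher and 1 lower, where 0.895% and 1.85% of all tested genes were. Without culture 1, 23 genes (15.3%) passed in either direction, where 10.4% of all tested genes did. Without culture 2 or culture 3, 0 did, where 0.0403% and 0.00574% of all tested genes did. The median fitted difference was 0.30 on the log2 scale, against 0.02 over all tested genes, and 108 of the 150 lay above 0, against 52.5% of all tested genes. By culture the median difference was 0.02, 0.09 and 0.60 for cultures 1, 2 and 3, with 76, 88 and 122 of the 150 genes above 0, so the shift lay mainly in culture 3.

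The gene called higher in rMBD3 at 24 h was ENSRNOG00000011228 (chr8:51367091-51384330, minus strand, 7 merged exons). It was at 11.5, 16.5 and 32.5 CPM in GFP (lowest, median and highest) and at 31.6, 41.6 and 53 CPM in rMBD3, where only the highest GFP library reached the rMBD3 range. The untransfected libraries were at 5.17, 19.3 and 21.3 CPM. The fitted difference was 1.23 ± 0.29 (log2, SE, edgeR adjusted p = 0.0358), it was higher in rMBD3 in 6 of 6 pairs, and the call was lost without culture 2 (1.43) or culture 3 (1.08). The higher level was already there at 6 h, at 8.48, 16 and 17.9 CPM in rMBD3 against 3.01, 6.65 and 8.87 CPM in GFP. The rise from 6 h to 24 h was 1.49 ± 0.30 in GFP and 1.51 ± 0.29 in rMBD3 (log2, SE, edgeR adjusted p = 0.000231 and 0.000133), and the fitted difference between these rises was 0.02 ± 0.42.

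At 6 h 0 of the 150 genes differed between rMBD3 and GFP at an edgeR adjusted p under 0.05, where 0.181% of all tested genes were higher and 0.0408% lower. An unadjusted p under 0.05 was reached by 29 of them (19.3%), where 9.5% of all tested genes reached it, and DESeq2 called 7 (4.67%), where it called 0.881% of all tested genes. With the culture number as a block 6 were higher, where 1.01% of all tested genes were, and with a block for each culture at each time 18 were, where 2.13% of all tested genes were. None was lower with either block, where 0.402% and 0.978% of all tested genes were. The median fitted difference was 0.25 (log2), against -0.04 over all tested genes, and 107 of the 150 lay above 0, against 45.3% of all tested genes. By culture the median difference was 0.46, 0.15 and 0.17 for cultures 1, 2 and 3, with 110, 90 and 99 of the 150 above 0, and without culture 1 the fitted median was 0.16. At 6 h the shift was thus largest in culture 1, and at 24 h in culture 3. At 2 h, with no test, the median difference was 0.14, against -0.03 over all tested genes, and 95 of the 150 lay above 0. Against the untransfected libraries, which chose the genes, the medians at 2, 6 and 24 h were -0.23, -0.20 and -0.26 in GFP. In rMBD3 they were -0.04, 0.01 and 0.06, likewise a description with no test. The smallest p values belonged to ENSRNOG00000011228, with 1.20 ± 0.29, and to ENSRNOG00000070689 (chr1:198840453-198856309, minus strand, 8 merged exons), with 1.51 ± 0.37 (log2, SE, edgeR adjusted p = 0.0592 for each). Both passed the threshold with the culture number as a block (1.16 and 1.45). ENSRNOG00000070689 was at 3.2, 5.21 and 9.03 CPM in GFP and at 7.57, 11.6 and 26.4 CPM in rMBD3 at 6 h, higher in rMBD3 in 6 of 6 pairs. At 24 h its medians were 10.2 CPM in the untransfected libraries, 16.2 CPM in GFP and 38.4 CPM in rMBD3.

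Whether the late rise itself was larger or smaller with rMBD3 was tested as the difference of the 24 h minus 6 h changes. At an edgeR adjusted p under 0.05, 0 of the 150 genes and 0.0% of all tested genes differed. An unadjusted p under 0.05 was reached by 4 of the 150, where 4.18% of all tested genes reached it. DESeq2 called 0 of the 150 and 0.00932% of all genes it tested. The median difference was 0.02, against 0.02 over all tested genes. Of the 150, 76 lay above 0, against 52.1% of all tested genes. Without culture 1, 2 or 3 the median of the 150 was 0.12, -0.008 and -0.21, so its sign moved with single cultures. Over all tested genes it was -0.03, -0.02 and -0.0035 in these fits. The median SE of a single gene was 0.50 on the log2 scale. The smallest p among the 150 was that of ENSRNOG00000057527 (chr5:57748982-57749253, minus strand, a single exon), at -2.46 ± 0.87 (log2, SE, unadjusted p = 0.00712, edgeR adjusted p = 1). It was at 1.29, 5.71 and 12.7 CPM at 24 h in GFP and at 0.396, 1.12 and 2.54 CPM in rMBD3, lower in rMBD3 in 6 of 6 pairs.

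Magnesium-free and standard medium were compared at 24 h over both viruses. At an edgeR adjusted p under 0.05, 0 of the 150 genes and 0.0% of all tested genes differed. An unadjusted p under 0.05 was reached by 6 of the 150, where 7.76% of all tested genes reached it. DESeq2 called 0 of the 150 and 0.112% of all genes it tested. With a block for each culture at each time, 0 of the 150 and 0.763% of all tested genes differed. The median fitted difference was 0.18 (log2) toward higher in magnesium-free medium, against 0.01 over all tested genes. Of the 150, 105 lay above 0, against 51% of all tested genes. By construct the medians were 0.16 in the untransfected cultures, 0.27 in GFP and 0.04 in rMBD3, and whether they differ was not tested. The smallest p was that of ENSRNOG00000002369 (chr13:65804797-65846807, plus strand, 9 merged exons), at 1.23 ± 0.40 (log2, SE, unadjusted p = 0.00351, edgeR adjusted p = 0.519). In GFP it was at 12.5, 12.7 and 16 CPM with magnesium and at 18.8, 31.3 and 113 CPM without, so the media did not overlap, and in rMBD3 at 12.8, 54.4 and 111 CPM with magnesium and 24.4, 97 and 135 CPM without, where they did. In each of the 6 pairs it was higher in magnesium-free medium. In the untransfected libraries it was at 19, 77.1 and 94.1 CPM with magnesium and 41.2, 71.4 and 86.8 CPM without.

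Compared with the genes the rule ranked, the 150 had longer and more divided gene models, a description that the rule's limit on span touches only at its upper end. Their span had a median of 31233.5 bases, against 25774, and their exon length a median of 3921 bases, against 3250. The median number of merged exons was 15.5, against 11, and 51 of the 150 (34%) had 20 or more, against 19.1%. A span over 100 kb was found in 35 (23.3%), against 14%, and one under 10 kb in 20 (13.3%), against 22.6%. The plus strand held 67 (44.7%), against 50.1%. Among the 150, genes with 20 or more merged exons were called in both viruses in 41 of 51 cases and the others in 71 of 99. The share of all tested genes called in these exon classes was not counted, so no link with exon number is read from this.

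The 150 genes were spread over the genome. Chromosome 1 held 20 of them (13.3%, against 13.1% of the ranked genes), chromosomes 2 and 8 held 15 each (10%, against 6.38% and 5.87%), chromosome 10 held 8 (5.33%, against 8.88%) and chromosome 14 held 1 (0.667%, against 3.38%). Within 100 kb of each other lay 6 pairs, all on the same strand. Of these 12 genes, 11 were called higher at 24 h in GFP and 10 in rMBD3, and in 4 pairs both genes were called in both viruses. The closest pair lay on the minus strand of chromosome 8, at 20300319 to 20305310 and 20311676 to 20340900, with a gap of 6365 bases. In the next, on the plus strand of chromosome 2, ENSRNOG00000011647 lay 7644 bases from a neighbour at 176091804 to 176093254 whose fitted late rise was 2.81 in GFP and 3.00 in rMBD3 (log2). The called gene ENSRNOG00000011228 also had a neighbour among the 150, 49227 bases away. Whether reads were shared between such neighbours by similar sequence was not tested.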

How the data were processed

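Per the file headers, the deposited counts are read pairs per gene made with featureCounts 2.0.0, counted on the reverse strand (setting 2) at mapping quality 3 or more, with the Ensembl release 105 annotation of mRatBN7.2. Per the labels' protocols, libraries came from a stranded mRNA kit, were aligned with STAR to rn6 and tested with DESeq2. The builds named differ, and coordinates are those of the count table. The submitters' processing notes also list Trim Galore, Salmon and SAMtools. The authors' table of log2 values was not used.

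Counts were tested with edgeR 4.0.16 in R 4.3.3: filterByExpr (minimum count 10, minimum total 15), TMM scaling, robust quasi-likelihood fit of 18 group coefficients to all 54 libraries with no block, and Benjamini-Hochberg adjustment over 17172 genes. Contrasts averaged both media. CPM printed for single genes, and the overlaps and pairs read from them, used total counts. The counts of genes that did not overlap or kept their sign in pairs used TMM-scaled CPM. SE came from the fold change and its F statistic. The total counts of 14448927 to 39691105 per library limit the precision of genes at a few CPM.

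The culture number of the labels is shared by all groups. Same-numbered libraries deviated together, with correlations of 0.213 to 0.727 in every comparison, so it was taken to pair the samples. The main fit held no block, so the calls and adjusted p values given first for each comparison leave this pairing out. Alternatives were this block, a block per culture and time, DESeq2 1.42.0 (total count at least 10), relative log expression factors, no filter, and each culture left out. No normalization factors was added after seeing the data. Scripts were tested on simulated data. The 150 genes, the comparisons and the lists were chosen with earlier results of these data known. Named genes were to be the 25 with the largest rise and up to 5 per comparison. Because the files pair no symbols with identifiers, this was narrowed to 2 per direction and comparison, by size of the fitted change among called genes, by lowest fitted change, or by smallest p where few or none were called. Planned lists, cell type markers and promoter sequences, which need symbols, were not analysed here.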

Additional observations from a re-analysis of the deposited data

How the results depend on the processing

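With the culture number as a block, a block per culture and time, DESeq2 and relative log expression factors, the number of late-rising genes that differed between rMBD3 and GFP at 24 h was 13, 22, 7 and 1, against 1 with no block. Of all tested genes 6.59%, 12.7%, 2.75% and 0.687% were called, against 8.67%, 14.7%, 4.67% and 0.667% of the 150. At 6 h these numbers were 6, 18, 7 and 2, against 0, where 1.42%, 3.1%, 0.881% and 0.39% of all tested genes were called. For the other comparisons the block changed no total of calls by more than 1.5 times. In rMBD3 it called 3 genes lower from 2 h to 6 h, against 0, where 18.4% of all tested genes were, against 14%. DESeq2 called 41 genes higher from 2 h to 6 h in GFP, against 27, where 10.3% of all tested genes were, against 9.76%. In the comparison for which each gene was named, the block changed the calls of the 2 genes at 6 h given above and of no other. Leaving out each culture in turn gave 71 to 129 genes for the late step in GFP, 48 to 129 in rMBD3, 2 to 55 for the early step in GFP, 7 to 50 in rMBD3, 0 to 23 between rMBD3 and GFP at 24 h and 0 to 2 at 6 h. These fits hold fewer libraries. The choice of the 150 genes kept 94 to 123 of them without 1 culture, 148 with TMM scaling, 139 with a pseudocount of 1 and 110 in either medium alone. The fitted late change in GFP of ENSRNOG00000015423 was 0.15 with the block and -1.14 to 0.74 with 1 culture left out, against -0.32, and that of ENSRNOG00000008986 was -0.26 to 0.14 with 1 culture left out, against -0.08. The cause was not tested.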
